A study of Arabidopsis thaliana with 12 samples.

Results

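DI21 (AT4G15910), CML41 (AT3G50770) and AT1G35210 are 3 Arabidopsis thaliana genes whose transcripts were followed here in dark-kept plants of the flu mutant and the wild type (WT). They are 3 of the 692 features on the array that the platform annotation ties to exactly 1 gene, out of 3439 features in all. Each gene had 1 such feature, and 0 of the features annotated with several genes listed any of them. The genes were picked because earlier results of these same arrays showed a clear difference between flu and WT, so that difference is described below and is not tested. The comparison asks which transcripts differ between the mutant and the WT before any return to light.

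The 12 arrays came from 6 samples of the flu mutant and 6 of the WT, both in ecotype Landsberg and both kept in darkness for 12 h before harvest. The mutant lacks FLU, a regulator of chlorophyll synthesis, and no other allele or treatment is labelled for either genotype. The sources used here give no tissue, plant age or hybridisation protocol. They also do not say whether the samples of a genotype came from separate plants, so the p-values below cover only variation from sample to sample, which may be technical. Fewer cells of a type and less RNA per cell cannot be told apart in such samples. No feature named FLU alone, so the mutated gene did not check the labels.

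FLU holds back the first committed steps of tetrapyrrole synthesis in the dark, and without it etiolated or dark-kept plants accumulate protochlorophyllide, a photosensitiser that gives off singlet oxygen once light returns. DI21, drought-induced 21, is a small protein of a late embryogenesis abundant (LEA) family whose transcript was first described as induced by progressive drought and abscisic acid (ABA), the hormone of water shortage. CML41, calmodulin-like 41, is an EF-hand calcium sensor that has been located at plasmodesmata, the channels between plant cells, and linked to their closure with callose during the response to bacterial flagellin. AT1G35210 encodes a protein with no name in the RefSeq gene table used here, and no role is given to it. All 3 genes are listed as protein coding in that table.

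DI21 was lower in flu on every array. Its deposited intensity, a linear brightness in arbitrary units whose upper limit is 100, lay between 0.187 and 0.282 with a median of 0.243 on the 6 flu arrays, against 0.581 to 0.871 with a median of 0.695 on the 6 WT arrays. The ranges did not overlap, and the brightest flu array lay 0.300 units under the dimmest WT array. The means were 0.241 ± 0.0373 in flu and 0.712 ± 0.117 in WT (SD, n = 6 each), so the WT mean was 2.96 times the flu mean. DI21 was the only one of the 3 genes that was lower in the mutant. After log2 transformation and quantile normalisation its log2 change, flu minus WT, was -1.38 with a standard error (SE) of 0.14.

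CML41 was higher in flu on every array. Its intensity ran from 0.617 to 0.834 with a median of 0.737 in flu, and from 0.343 to 0.448 with a median of 0.425 in WT. The ranges again did not overlap, with 0.169 units between the dimmest flu array and the brightest WT array. Mean intensity was 0.722 ± 0.0890 in flu and 0.415 ± 0.0383 in WT (SD, n = 6 each), a ratio of 1.74, and the log2 change was 0.91 (SE 0.12).

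AT1G35210 was higher in flu too, with a much narrower margin. Its intensity ran from 0.378 to 0.548 with a median of 0.469 in flu, and from 0.161 to 0.370 with a median of 0.236 in WT. The dimmest flu array, number 2, lay only 0.00837 units above the brightest WT array, number 3, so the ranges do not overlap by a margin far smaller than the SD of either genotype. The means were 0.465 ± 0.0590 in flu and 0.237 ± 0.0727 in WT (SD, n = 6 each), a ratio of 1.96, and the log2 change was 1.25 (SE 0.18). WT arrays varied most for this gene, with a coefficient of variation of 30.6%, against 12.7% on the flu arrays.

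**Figure D1:**
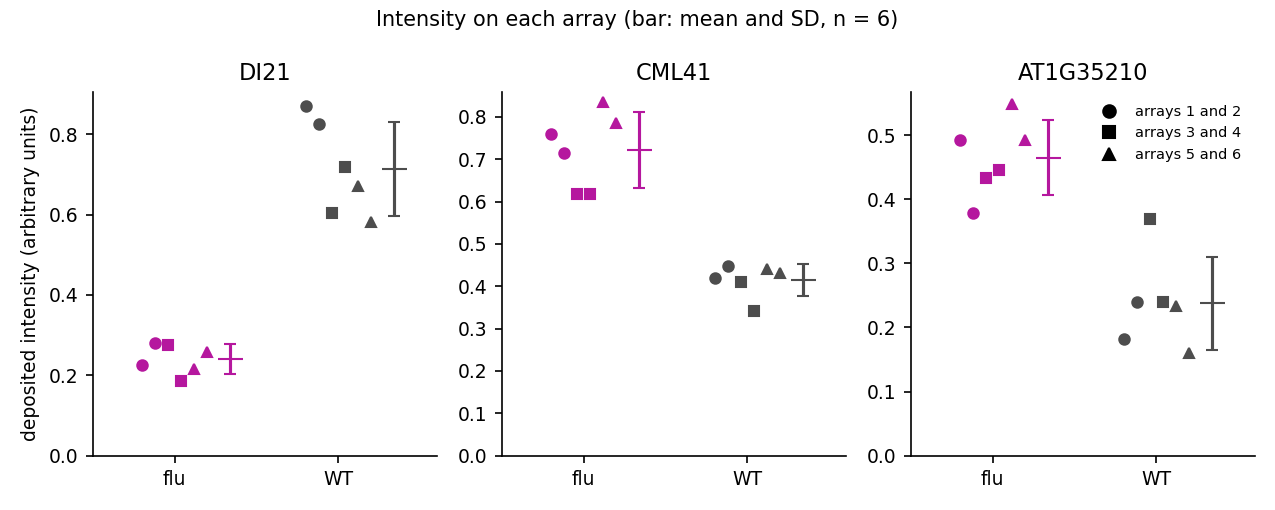
Deposited intensity (arbitrary units, linear axis from 0) of DI21, CML41 and AT1G35210 on each of the 6 flu and 6 WT arrays; symbols mark arrays 1 and 2, 3 and 4, and 5 and 6, and the bar gives the mean and SD. DI21 sits between 0.187 and 0.282 in flu, against 0.581 to 0.871 in WT, CML41 and AT1G35210 sit higher in flu, and the highest WT point of AT1G35210 (0.370) almost reaches the lowest flu point (0.378).

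A lack of overlap was common on these arrays. The 6 flu and 6 WT intensities did not overlap in 37.1% of the 3439 features, with flu higher in 12.5% and lower in 24.6%. In the limma fit over 12 arrays all 3 members passed a Benjamini-Hochberg adjusted p of 0.05, as did 52.2% of all features, 23.0% as higher and 29.2% as lower in flu. Because the members were chosen on this contrast, nothing is read from their passing. Among the 692 single-gene features DI21 ranked 26th from the lowest log2 change, AT1G35210 ranked 58th from the highest and CML41 ranked 102nd from the highest. The median log2 change was -0.04 over all features. Over the 3 members, 2 higher genes and 1 lower gene, the median of 0.91 is the value of CML41, and nothing is read from it.

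Within each genotype, arrays with successive numbers (1 with 2, 3 with 4, 5 with 6) resembled each other and are called couples here, a name that is not in the labels. Spearman correlations of the deposited intensities were 0.909 to 0.967 within couples. Between couples they were 0.893 to 0.942 in flu, which overlaps that range, and 0.780 to 0.872 in WT. DI21 averaged 0.254, 0.231 and 0.237 in flu couples 1, 2 and 3, against 0.849, 0.661 and 0.627 in the WT couples. The flu couples were thus nearly level while the first WT couple stood above the other WT couples. The log2 change of DI21 between same-numbered couples was -1.61, -1.34 and -1.20. Over the 6 same-numbered pairs of arrays it ran from -1.82 to -0.96. For each member the normalised log2 levels of flu and WT did not overlap. The sign was therefore bound to be the same in every pair, and nothing is read from it.

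CML41 averaged 0.737, 0.618 and 0.810 in the flu couples, against 0.433, 0.376 and 0.437 in the WT couples. The second couple was the lowest in each genotype, so the log2 change stayed at 0.81, 0.92 and 0.99 in the 3 couples. Over the 6 pairs of arrays it ran from 0.74 to 1.07, the narrowest range of the 3 genes.

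AT1G35210 averaged 0.435, 0.439 and 0.520 in the flu couples, against 0.211, 0.305 and 0.197 in the WT couples. Its log2 change was 1.26, 0.84 and 1.66 in the 3 couples and ran from 0.43 to 1.90 over the 6 pairs. The smallest of these belongs to arrays 3, where WT was brightest.

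Whether couple number shifted the level alike in both genotypes does not use the genotype contrast and could be tested. Such a test counts a couple difference found in 1 genotype alone partly as noise. The couples themselves came from an earlier look at these data. In limma, fitted to the 6 couple means with a genotype term, the F test over couples gave adjusted p of 0.535 for DI21, 0.445 for CML41 and 0.846 for AT1G35210. The first couple lay above the mean of the other couples by 0.28 (SE 0.14) on the log2 scale for DI21 and by 0.14 (SE 0.11) for CML41, and for AT1G35210 the difference was -0.13 (SE 0.22). The same limma test called 0 of 3439 features (428 at an unadjusted p below 0.05, or 12.4%), and 31 with strips centred as described next, or 0.901%, none of them a member gene. With 3 couples per genotype, these tests do not show that the couples were alike.

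The difference between genotypes moved with the feature number, in a repeating cycle of 48 strips of 6 neighbouring numbers each. DI21 lay in strip 17, where the other 69 features had a mean log2 change of -0.43, the same direction as DI21. CML41 lay in strip 15, where the other 62 features averaged -0.53, opposite to CML41. AT1G35210 lay in strip 20, where the other 73 features averaged 0.41, the same direction as the gene. Within their strips 5 of 69 features were lower than DI21, 1 of 62 was higher than CML41 and 9 of 73 were higher than AT1G35210. What sets the strips was not tested.

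**Figure D2:**
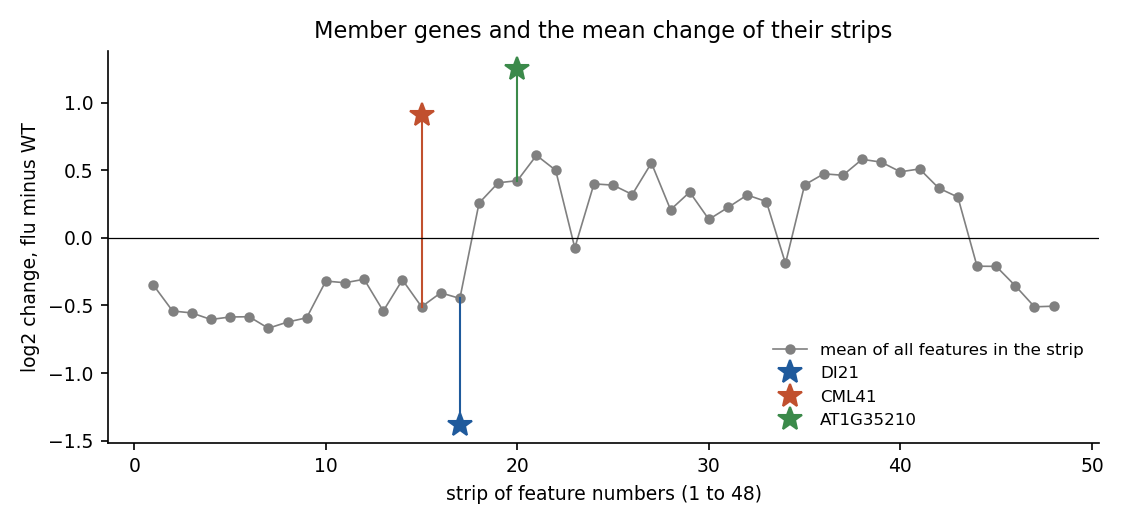
Mean log2 change (flu minus WT, vertical axis) of all features in each of 48 strips of feature numbers (horizontal axis, grey points), with the 3 member genes as stars joined to their own strip's mean. DI21 (-1.38) and AT1G35210 (1.25) lie beyond strips of the same sign, and CML41 (0.91) lies opposite to its strip.

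**Figure D3:**
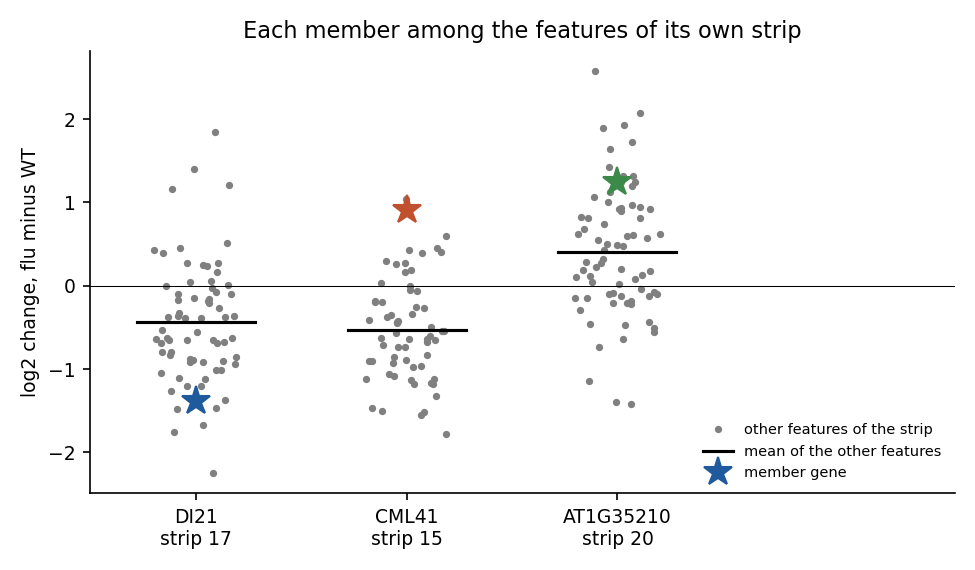
Log2 change (flu minus WT, vertical axis) of each member gene (star) and of every other feature of its strip (grey points, spread sideways for legibility), with the mean of the others as a black line. The means of the others are -0.43 for the strip of DI21, -0.53 for that of CML41 and 0.41 for that of AT1G35210, and 1 feature lies above CML41.

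When the mean deviation of each strip was subtracted from every array and couples were averaged, the sizes changed in different directions. DI21 was then at -0.94 (SE 0.18) and AT1G35210 at 0.83 (SE 0.18), closer to 0 than over 12 arrays, and CML41 was at 1.42 (SE 0.20), farther from 0. The order of the increases turned round, since AT1G35210 had the larger change of the higher pair over 12 arrays and CML41 had it with strips centred. Centred log2 levels of the 3 members on the 12 arrays did not overlap between genotypes. How many of all features share this on the centred scale was not counted, so nothing is read from it. For AT1G35210 the lowest flu array was at -1.51, against -1.56 for the highest WT array. With couples averaged alone 34.7% of all features passed, and with strips centred too 27.8% did, the 3 members among them in both cases.

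Values as deposited, log2 transformed without quantile normalisation, gave -1.56 (SE 0.13) for DI21, 0.79 (SE 0.10) for CML41 and 1.01 (SE 0.18) for AT1G35210. On that scale the median over all features was -0.20 against -0.04, and each of the 3 values lay lower as well. Of the calls over all features 34.0% were higher in flu as deposited, against 44.0% after normalisation.

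**Figure D4:**
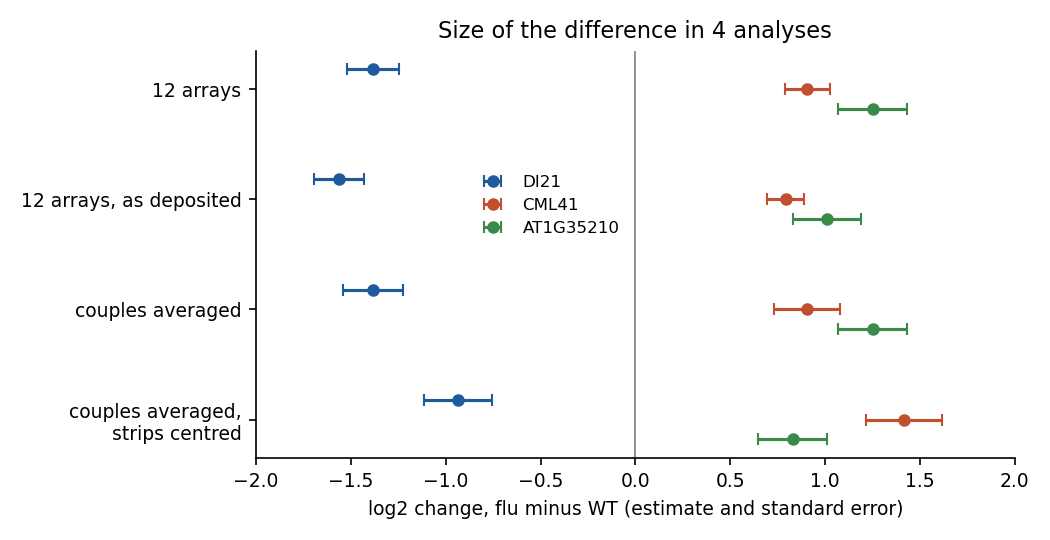
Log2 change, flu minus WT (horizontal axis, points with standard error bars), of DI21, CML41 and AT1G35210 in 4 analyses (rows). DI21 stays on the negative side, from -1.56 to -0.94, and CML41 and AT1G35210 exchange order with strips centred (1.42 and 0.83).

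By likeness of normalised log2 levels over the 12 arrays, the single-gene features nearest to DI21 were AT3G09050 (Pearson r = 0.972), AT1G03810 (0.970) and AT1G04420 (0.969). All 12 arrays share the genotype difference, so such values mostly restate it, and 53 single-gene features lay above 0.9. With strips centred AT1G03810 was 7th nearest to DI21 (r = 0.941), AT1G04420 was 29th (0.912) and AT3G09050 was 44th (0.883). AT1G03810 averaged 1.16 ± 0.149 in flu and 6.15 ± 1.34 in WT (SD, n = 6 each). For CML41 the nearest were AT5G53920 (0.954), AT1G19490 (0.950) and FBL17 (0.946), an F-box protein of the cell cycle in pollen, with 12 features above 0.9. With strips centred AT1G19490 was 4th (0.946), FBL17 was 48th (0.852) and AT5G53920 was 79th (0.778). AT1G35210 was nearest to AT3G51510 (0.969), AT5G65250 (0.939) and AT3G06870 (0.936), with 11 features above 0.9, and with strips centred these ranked 1st, 3rd and 4th.

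Deviations from the genotype means, which leave the genotype difference out, gave other neighbours with the exception of AT3G51510. For DI21 they were AT4G23110 (r = 0.810), AT2G34050 (0.794) and AT4G25290 (0.770), the last of which lies in the strip of DI21 and was higher in flu by 1.21 (SE 0.24) on the log2 scale, opposite to DI21. CML41 was followed by CCS (0.929), the copper chaperone of superoxide dismutase, AT4G16610 (0.920) and AT4G14380 (0.904), and 3 of the 12 CCS intensities lay below the floor. AT1G35210 was followed by AT3G51510 (0.829), AT3G53470 (0.812) and AT1G72640 (0.804). These are correlations over 12 arrays that share couples and strips and they carry no test.

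Leaving out the farthest array of a member changed these correlations of deviations to different degrees. DI21 lay farthest from its genotype mean on WT array 1, at 0.35 on the log2 scale. Without that array r rose to 0.842 for AT2G34050 and fell to 0.744 for AT4G23110 and 0.703 for AT4G25290. CML41 lay farthest from its genotype mean on WT array 4, at -0.40 on the log2 scale, and without that array r was 0.919 for CCS and 0.846 for AT4G14380. AT1G35210 lay farthest on WT array 3, at 0.70, and without it r fell to 0.672 for AT3G51510 and 0.564 for AT1G72640. With strips centred AT1G72640 was at 0.239, against 0.804 before centring.

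The deviations of the members from their genotype means were only weakly correlated over the 12 arrays together. The correlation of deviations over 12 arrays was 0.230 between DI21 and CML41, -0.250 between DI21 and AT1G35210, and 0.0514 between CML41 and AT1G35210. For the last pair it was 0.727 on the 6 flu arrays and -0.209 on the 6 WT arrays, values that 6 arrays cannot pin down.

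Few relatives of the 3 genes were measured alone. Of 34 listed ABA, drought and LEA genes, 0 had a single-gene feature, and the same held for 10 dark-induced and senescence genes. Among 33 calmodulin and calcium sensor genes 1 was measured, CML30 (AT2G15680), another calmodulin-like protein. CML30 had intensities of 0.610 to 0.757 in flu and of 0.647 to 0.899 in WT, which overlap, and its log2 value was -0.09 (SE 0.10, limma adjusted p = 0.495). Without WT arrays 3 and 4 it was -0.22, with a limma adjusted p of 0.0406, and with couples averaged, strips centred and couple number as replicate block it was 0.58, in the other direction, with a limma adjusted p of 0.0495. Over all alternatives the adjusted p ran from 0.0406 to 1. Of 38 singlet oxygen, defence and general stress genes 1 was measured, AT1G66090, listed at 0 on 5 flu arrays and 6 WT arrays. A search of RefSeq symbols and synonyms for words of calcium binding found CML30 again, and a search for words of stress or defence found no further single-gene feature.

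A wider set of 11 genes was therefore read from the RefSeq names of the measured genes, after those names had been seen. In the fit over 12 arrays 2 of the 11 rose in flu, 4 fell and 5 did not pass, where 49.7% of single-gene features passed, so the set's 6 passes lie close to the background. The median log2 value of the set was -0.09, against -0.04 over all features. In all 3 analyses (12 arrays, couples averaged, and strips centred too) 1 of the 11 passed with the same sign, against 19.9% of single-gene features.

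Among its ABA and osmotic genes, XERICO (AT2G04240), a RING-type protein that raises ABA levels when overexpressed, had intensities of 1.99 to 3.12 in flu and 1.66 to 2.14 in WT. The ranges overlapped, and its log2 change was 0.46 (SE 0.11, limma adjusted p = 0.0050). XERICO lies in the same strip as CML41 and stood at 0.97 with strips centred, so centring moved both by the same amount. MAMI (AT5G54110), named as membrane-associated and mannitol-induced, ran from 0.569 to 1.25 in flu and from 0.282 to 0.625 in WT, with a log2 change of 1.09 (SE 0.29, limma adjusted p = 0.0077). With couples averaged XERICO and MAMI no longer passed (limma adjusted p = 0.0770 and 0.101, the highest of the alternatives run, the lowest being 0.000847 and 0.000704). SIS (AT5G02020), named as salt-induced and serine rich, was at 0.04 (SE 0.21).

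Among signalling genes, RALFL32 (AT4G14010), of the RALF-like secreted peptides, ran from 0.221 to 0.319 in flu and from 0.586 to 0.838 in WT without overlap. Its log2 change was -1.17 (SE 0.12, limma adjusted p = 9.0e-06), and it was the member of the set that passed in all 3 analyses, at -0.66 with strips centred. GLR2.7 (AT2G29120), a glutamate receptor-like channel, ran from 0.335 to 0.462 in flu and from 0.514 to 0.769 in WT, with a log2 change of -0.62 (SE 0.14, adjusted p = 0.0024 in limma, 0.0590 with couples averaged, and 0.000141 to 0.181 over the alternatives run). The calmodulin-binding IQD22 and IQD32 were at -0.00 (SE 0.52) and 0.21 (SE 0.21), and SWAP70 was at -0.19 (SE 0.85, and 0.33 with the replicate number as a block, where the limma adjusted p was 0.650). Without WT arrays 3 and 4 SWAP70 was at -1.42, with a limma adjusted p of 0.0467, and over all alternatives the adjusted p ran from 0.0467 to 1.

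AILP1 (AT5G19140) ran from 0.0810 to 0.215 in flu and from 0.202 to 0.551 in WT, at -1.06 (SE 0.28, limma adjusted p = 0.0070, and 0.0675 with couples averaged, the highest of the alternatives run, the lowest being 0.000706). CHL (AT3G47860), the plastid lipocalin that protects thylakoid lipids, ran from 0.168 to 0.276 in flu and from 0.278 to 0.526 in WT, at -0.56 (SE 0.17, limma adjusted p = 0.0140, and 0.0581 with couples averaged). CHL did not pass without flu arrays 5 and 6 (-0.51, limma adjusted p = 0.0529) or without WT arrays 1 and 2 (-0.40, 0.0515), and over all alternatives its adjusted p ran from 0.00113 to 0.143.

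**Figure D5:**
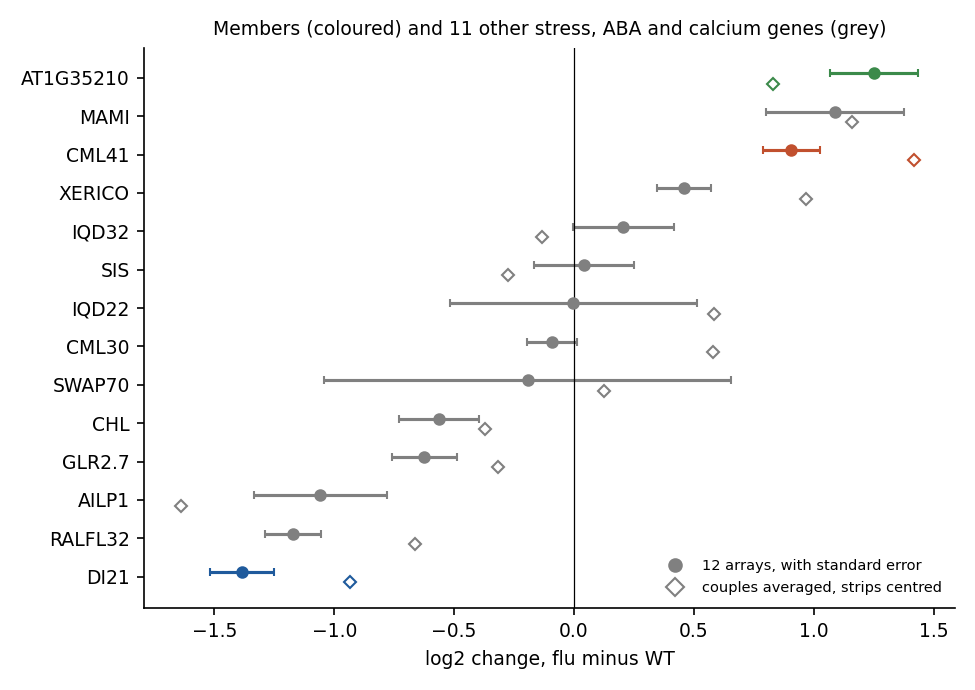
Log2 change, flu minus WT (horizontal axis), of the 3 members (coloured) and 11 other stress, ABA and calcium genes (grey); filled circles are the fit over 12 arrays with standard errors and open diamonds the values with couples averaged and strips centred. Values over 12 arrays run from -1.38 for DI21 to 1.25 for AT1G35210, with RALFL32 at -1.17 and MAMI at 1.09.

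Since tissue is not labelled, marker genes were read beside these values. Of 8 leaf photosynthesis markers 5 were measured, and their summed intensity was 42.7 to 48.3 on flu arrays and 36.4 to 47.1 on WT arrays. LHB1B2 (means of 18.4 in flu and 17.5 in WT) and PSBW (20.4 and 16.8) made up most of that sum. SBPASE (0.593 and 0.522) and PRK (0.503 and 0.916) hardly enter it. Over 12 arrays 1 of the 5, PRK, passed as lower in flu, where 49.7% of single-gene features passed. PRK was at -0.73 (SE 0.23, limma adjusted p = 0.0173), did not pass with couples averaged (0.141), and stood at -0.38 (0.383) once strips were centred as well. With couples averaged and strips centred SBPASE (0.84, limma adjusted p = 0.0142) and PSBW (0.59, 0.0280) passed as higher in flu instead, and PSBW also passed as deposited (0.30, 0.0320). Of 5 reproductive and meristem markers 3 were measured, summing to 0.968 to 1.48 in flu and 1.59 to 1.90 in WT, with SPL higher and LAS and AGL26 lower over 12 arrays and 0 of the 3 passing in all 3 analyses. That bar was cleared by 19.9% of single-gene features. LAS was at -1.30 (SE 0.17, limma adjusted p = 6.7e-05), without overlap between genotypes, and passed with couples averaged (0.0095). Its call held in 26 of 27 alternatives, the exception being couples averaged and strips centred without a block (-0.70, 0.0668). SPL was at 0.91 (SE 0.15, limma adjusted p = 0.00042), passed with couples averaged (0.0222) and did not with strips centred too (0.59, 0.115). AGL26 was at -0.55 (SE 0.16, limma adjusted p = 0.0143) over 12 arrays, did not pass with couples averaged (0.119), and was at -0.01 (0.968) with strips centred too. No root or seed marker was measured alone. None of the measured markers was listed at 0, and the part of other tissues in the values of DI21, CML41 and AT1G35210 was not tested.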

How the data were processed

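The deposited table gives a linear intensity for each of 3439 features on 12 arrays, scaled by the authors in a way that no label or header states. Array medians were 0.426 to 0.442 in flu and 0.443 to 0.491 in WT, and 108 to 165 features per array were listed at 0. The number of arrays limits the precision. All values of the members lay above the floor. Gene names came from the platform annotation through gene identifiers to RefSeq (assembly TAIR10.1, 690 of 692 matched), with no coordinates, since the array's build is not named, and with no sequences.

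A floor of 0.0236, the 1st percentile of the positive intensities, replaced lower values before the log2 transformation. Arrays were then quantile normalised and fitted with limma 3.58.1 in R 4.3.3 (two-sided, Benjamini-Hochberg over all features). The fits were tested on simulated data. The strips and couples were taken from an earlier look at these data. Members and lists were chosen with earlier results of these data known, and the set of 11 genes after the measured names were read. The genes named are the members, every measured list gene and, per member, the 3 nearest by levels and the 3 nearest by deviations. The labels number the arrays but state no pairing. In the data, deviations of same-numbered flu and WT arrays had correlations of 0.368 to 0.539, the highest being with the same number for 12 of 12 arrays. The fit over 12 arrays used genotype alone, so its SE, p-values and shares of calls treat these correlated arrays as independent. The correlation within couples was estimated at 0.554, and with couple as a random block 1369 features passed against 1796. Alternatives were normalisation, floor, filter, block, couples, strips, array weights and left-out arrays.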

Additional observations from a re-analysis of the deposited data

Results flagged for a closer look

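For 80 groups of 6 arrays (the members and every other named gene in flu and in WT), the array farthest from the rest was compared with the spread of its group. In 7 groups 1 array stood apart, where chance gives about 1 in 20, and 0 of the 7 belong to DI21, CML41 or AT1G35210. Values are normalised log2 levels. AT1G66090 was at -4.52 in flu array 4, against -5.41 in the other flu arrays, all of which were at the floor. PSBW was at 4.03 in flu array 1, against 4.18 to 4.27, and SPL at -1.33 in flu array 1, against -0.82 to -0.58. SIS was at -1.50 in flu array 5, against -2.29 to -2.06. AT3G09050, the nearest to DI21 by levels, was at -1.41 in flu array 4, against -1.01 to -0.88. AT1G19490 was at -3.004 in WT array 4, against -2.28 to -1.92, and AT4G14380 at -2.81 in WT array 4, against -1.31 to -0.58. WT array 4 was also the lowest WT array for CML41, at -1.75.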

How the results depend on the processing

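With couples averaged and strips centred, with or without couple number as a replicate block, the log2 changes moved to -0.94 for DI21, 1.42 for CML41 and 0.83 for AT1G35210. All other alternatives moved them by less than 1 SD between arrays. None changed a sign, but leaving out arrays could not do so, since the members' levels did not overlap between genotypes. Leaving out single arrays gave -1.44 to -1.31 for DI21, 0.83 to 0.95 for CML41 and 1.14 to 1.39 for AT1G35210. In this balanced design neither a replicate block nor averaged couples nor a random block for couples can move the members' log2 changes. Their values of -1.38, 0.91 and 1.25 were fixed in those settings, and only the SE could change. For DI21, CML41 and AT1G35210 it was 0.14, 0.07 and 0.20 with the replicate block over 12 arrays. With couples averaged it was 0.16, 0.17 and 0.18, against 0.14, 0.12 and 0.18 over 12 arrays without a block. The replicate block over 12 arrays let 1966 features pass against 1796. The count of 1796 became 1089 among features above the median intensity, 1193 with couples averaged, 956 when strips were centred as well and 1177 when couple number was added to that as replicate block. It was 1666 to 1792 with single arrays left out. Of the set of 11 stress, ABA and calcium genes 6 passed over 12 arrays, 1 with couples averaged and 4 once strips were centred as well. CML30, at -0.09 over 12 arrays, was at 0.58 (adjusted p = 0.0495) with couples averaged, strips centred and couple number as replicate block. The move is the subtraction of the mean of its strip, strip 7, which was -0.67. What sets that mean was not tested. The replicate block over 12 arrays made SBPASE (adjusted p = 0.0432) and LHB1B2 (0.04996) pass and changed no other call among the members and list genes. With couples averaged and couple number as replicate block neither passed (0.148 and 0.177), and LHB1B2, at -0.26 over 12 arrays, was at 0.08 as deposited and at 0.28 with couples averaged and strips centred. Beside the losses given above with couples averaged and strips centred, PRK did not pass without flu arrays 1 and 2, flu arrays 3 and 4 or WT arrays 5 and 6 (adjusted p = 0.0552, 0.0949 and 0.0507), and AGL26 did not without flu arrays 3 and 4, WT arrays 1 and 2 or WT arrays 5 and 6 (0.0811, 0.0650 and 0.0746). SBPASE passed without WT array 1 (0.0135) and without WT arrays 1 and 2 (0.00377), as LHB1B2 did without that couple (0.0343). The filter on the median intensity dropped DI21 and AT1G35210. Signal over background was not analysed here.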
